A study of Mus musculus with 182 samples.

Results

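The cells described here were sorted as germinal centre B cells and had their heavy chain read out from the variable gene Ighv1-72. They are set against cells of the same sort that used other variable genes. Of these, 16 had little signal of Fas and several other germinal centre genes, as given below. Both groups were chosen by measured values. In each of 182 cells the normalized signal of all genes whose symbol starts with Ighv was summed, and a cell was kept where this sum reached 10. A kept cell in which Ighv1-72 made up over 50% of the sum is called an Ighv1-72 cell, and every other kept cell is called an other cell. This gave 36 Ighv1-72 cells and 42 other cells, while 104 cells had a smaller sum and were left out of the comparison. Ighv1-72 cells were thus 46.2% of the 78 kept cells (exact Clopper-Pearson 95% interval 34.8 to 57.8) and 19.8% of all cells.

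All cells came from spleens of C57BL/6 mice, named C56BL/6J in the design text, taken on day 13 after an injection into the peritoneum of 100 μg NP(23)-KLH with 50% alum and 1 μg LPS. Every cell shares this strain, immunization and time, so there is no untreated group. Cells had been depleted of T cells, CD11c+ cells and IgD+ cells and sorted for B220, Fas and GL7. The labels add binding of NP to the sorted phenotype, whereas the design text lists NP only as a stain, so it cannot be said that each cell bound NP. Single cells were captured on a Fluidigm C1 chip, and cDNA was made with SMARTer chemistry. The labels name no animal. All cells were therefore treated as 1 biological sample, cells were not used as replicates, and no p-value is given. Intervals cover counting error over cells only.

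A B cell builds its heavy chain by joining 1 variable segment to diversity and joining segments, and its clonal descendants keep that segment. In the germinal centre the descendants divide and mutate the joined gene in the dark zone. In the light zone they take up antigen, present it on MHC class II and compete for help from T cells. NP is a small hapten, and the response of C57BL/6 mice to it is a textbook case of a shared solution: many clones use Ighv1-72, and a change of a tryptophan codon to a leucine codon in its first complementarity determining region raises affinity for NP. The joined sequences of these cells and their mutations were not analysed here, and light chain use was not analysed here.

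The germline segment is shown first, because it defines the cells and because close copies of it limit how well short reads can be assigned. Ighv1-72 lies on the minus strand at chr12:115757984-115758277 (mm10), where these 294 bases are its coding second exon after the leader, as annotated in GENCODE M21. The first line gives it with the tryptophan codon, codon 33 counted from the first base shown, in capitals. The other lines give the 3 segments of the table closest to it, with every base that differs from Ighv1-72 in capitals.
Ighv1-72: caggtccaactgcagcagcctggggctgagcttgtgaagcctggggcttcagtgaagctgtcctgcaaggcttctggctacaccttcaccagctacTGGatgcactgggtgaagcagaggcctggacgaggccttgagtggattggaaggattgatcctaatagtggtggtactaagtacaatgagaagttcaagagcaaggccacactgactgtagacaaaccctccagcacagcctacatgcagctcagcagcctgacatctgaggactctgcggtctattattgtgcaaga
Ighv1-62-3: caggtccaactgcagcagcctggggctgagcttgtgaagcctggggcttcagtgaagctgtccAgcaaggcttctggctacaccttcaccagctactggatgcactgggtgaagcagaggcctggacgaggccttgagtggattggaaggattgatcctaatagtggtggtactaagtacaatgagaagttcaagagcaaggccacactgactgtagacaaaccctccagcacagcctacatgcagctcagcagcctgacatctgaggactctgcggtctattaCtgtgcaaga
Ighv1-53: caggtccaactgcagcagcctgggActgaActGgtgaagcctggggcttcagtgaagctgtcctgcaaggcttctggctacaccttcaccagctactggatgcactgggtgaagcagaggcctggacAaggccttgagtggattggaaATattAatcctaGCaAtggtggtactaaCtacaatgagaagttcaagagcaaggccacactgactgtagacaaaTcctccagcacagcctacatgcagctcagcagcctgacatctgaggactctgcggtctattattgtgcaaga
Ighv1-64: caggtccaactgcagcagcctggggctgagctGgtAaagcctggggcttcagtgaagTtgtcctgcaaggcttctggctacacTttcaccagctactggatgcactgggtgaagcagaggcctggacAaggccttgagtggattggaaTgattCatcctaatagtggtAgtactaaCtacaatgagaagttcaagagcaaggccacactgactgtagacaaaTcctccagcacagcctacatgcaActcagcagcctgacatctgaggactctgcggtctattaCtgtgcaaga

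Ighv1-62-3, at chr12:115460999-115461292, differed from Ighv1-72 at 2 bases and was 99.3% identical. Ighv1-53 (chr12:115158403-115158696) and Ighv1-64 (chr12:115507545-115507838) each differed at 12 bases and were 95.9% identical. Of the 43 Ighv symbols in the table, 10 had a segment at least 90% identical to Ighv1-72, not counting Ighv1-72 itself. Among the 36 Ighv1-72 cells, Ighv1-62-3 reached a value of 1, the level called detected throughout, in 6 cells and was at most 22.1. Ighv1-53 was detected in 4 of these cells, at up to 29.1% of the summed signal of 1 cell, and Ighv1-64 in 2 cells, at up to 546. Reads of a mutated Ighv1-72 and reads of these copies could have been exchanged by the alignment, and this was not tested.

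In the Ighv1-72 cells the gene itself had a lowest value of 10.1, a median of 396 and a highest value of 6596. In the other cells its median was 0.10 and its highest value 234. These values chose the cells and are a description. Most cells were clear-cut: Ighv1-72 exceeded 95% of the summed signal in 29 of the 36 cells and 90% in 31, and it was under 1% in 40 of the 42 other cells. The 3 cells just inside the share of 50% stood at 63.6%, 69.5% and 69.9%, and the 3 just outside it at 38.8%, 27.1% and 0.791%. The lowest sums that were kept were 10.4, 10.7 and 10.8, and the highest that were not kept were 9.36, 9.29 and 8.61.

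The other cells used many variable genes. A total of 28 different genes were the largest in at least 1 of the 42 cells, and in 41 cells a single gene other than Ighv1-72 exceeded 50% of the sum. Ighv7-3 was the largest in 5 cells, and Ighv1-22, Ighv1-78 and Ighv1-85 were the largest in 3 cells each. The remaining 24 genes led in 1 or 2 cells. No other variable gene therefore came near the 36 cells of Ighv1-72. A second Ighv gene stood at 10 or more in 7 cells on each side. No doublet caller was run, and the highest correlation between any 2 cells was 0.597 in the first set of columns and 0.605 in the second. The 104 cells left out were not low in heavy chain signal as such: their summed constant genes had a median of 239, against 336 in Ighv1-72 cells and 235 in other cells. Only 2 of them had Ighv1-72 at 1 or more. Variable segments beyond the 43 symbols were not analysed here.

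**Figure D1:**
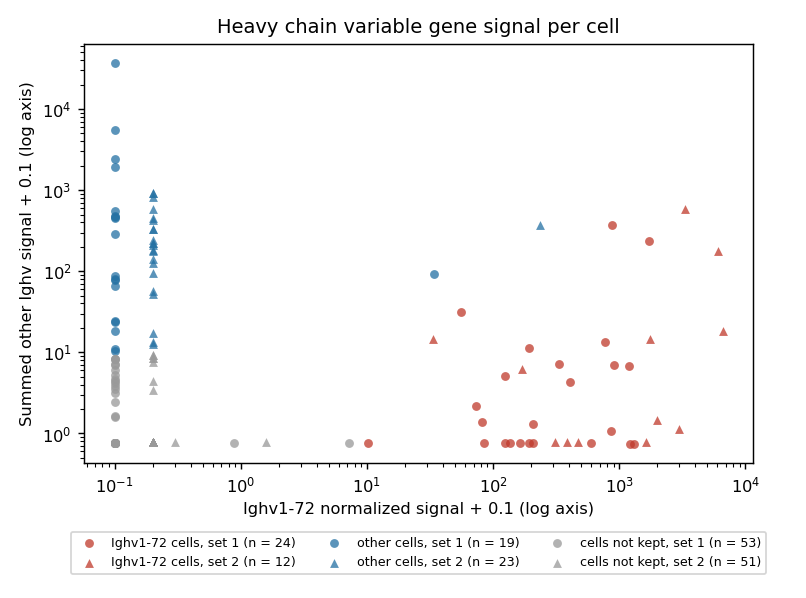
Ighv1-72 signal (x axis) against the summed signal of all other Ighv genes (y axis) in each of 182 cells, both as normalized signal plus 0.1 on log axes, with circles for set 1 and triangles for set 2. The 36 Ighv1-72 cells lie at the right, and 40 of the 42 other cells lie at the left edge, where Ighv1-72 is under 1% of the sum.

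The table's columns fall into 2 sets whose values carry different gene-wise shifts, cells 1 to 96 and cells 97 to 182, so every difference was taken within a set first. Set 1 held 24 Ighv1-72 cells and 19 other cells, and set 2 held 12 and 23. Ighv1-72 cells were thus 55.8% of kept cells in set 1 (interval 39.9 to 70.9) and 34.3% in set 2 (interval 19.1 to 52.2), and their median Ighv1-72 value was 208 in set 1 and 1688 in set 2. Depth in reads is unknown. The number of detected genes had medians of 1901 and 1904 on the 2 sides in set 1 and of 1704 and 1688 in set 2, but this number varies little between cells whatever the side. The number of genes above their lowest value in the set, which varies more, had medians of 2892 in Ighv1-72 cells and 2631 in other cells in set 1, and 2202 and 2298 in set 2. For each gene the mean of log2(value + 1) in other cells was subtracted from that in Ighv1-72 cells within each set, and the 2 results were averaged with weights that depend on the cell numbers. This combined value is called the difference below, and 1 log2 unit is a doubling for genes well above the added 1. A gene was called higher or lower where the difference was at least 1 in size and at least 0.5 in the same direction in both sets. The rule is one of size and not a test.

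One feature of the other cells has to be given before any gene. Sdc4, which encodes the heparan sulfate proteoglycan syndecan-4, stood at 100 or more in 16 of the 42 other cells (38.1%, interval 23.6 to 54.4), with 7 of 19 in set 1 and 9 of 23 in set 2. It reached that level in 0 of the 36 Ighv1-72 cells, a count that allows a share of up to 8.33% (3 cells of 36; exact 95% upper limit 9.74%), and in 11 of the 104 cells left out. The cut of 100 was set after the values were seen, and it fell in a gap: the values on either side of it among other cells were 53.8 and 155. Taking 10 as the level of presence within these 16 cells, the B lineage genes Cd79a, Ebf1 and Vpreb3 were present in 16, 14 and 13 of them and Ly6d, a surface protein of early B lineage cells, in 12. The germinal centre genes Fas, S1pr2 and Rgs13 were present in 0 of the 16 cells, and Bcl6, Mef2b and Mybl1 in 1 cell each. At the same level these genes were present in 20, 9, 12, 7, 20 and 22 of the 36 Ighv1-72 cells, in that order. Cd79a and Ebf1 are also on the germinal centre list used below, as is Cd79b, which was present in 16 of the 16 cells. Vpreb1 and Igll1, which encode the surrogate light chain of precursor B cells, were present in 3 cells each, Dntt in 2, and Rag1 and Rag2 in 0. Cd93 was present in 6 of the 16 cells, Il7r and Hhex in 5 each and Lef1 in 3. In the 36 Ighv1-72 cells Cd93 was present in 1 cell, and the others from Vpreb1 to Lef1 in 0. The 16 cells used 14 different variable genes, and Ighm was the largest constant gene in 15 of them. Since Fas protein was part of the gate and Fas signal was not detected in these cells, the counts of called genes and most lists and called genes described below are also given without them. That removes cells from the other side only, so it must shrink any difference in Sdc4 itself and in genes that are high in the same cells.

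The isotype of a cell was taken as its largest heavy chain constant gene where the constant genes summed to at least 10, which gave 35 Ighv1-72 cells and 40 other cells. IgM predominated on both sides, with Ighm the largest in 24 of 35 Ighv1-72 cells (68.6%, interval 50.7 to 83.1) and in 31 of 40 other cells (77.5%, interval 61.5 to 89.2). Cells switched to an IgG class were 11 of 35 (31.4%, interval 16.9 to 49.3) and 8 of 40 (20.0%, interval 9.05 to 35.6). The difference was 11.4 percentage points, with an interval of -8.16 to 30.5, so a difference in either direction lies within counting error. It was 7.02 points in set 1 and 13.0 points in set 2. Without the 16 Sdc4 cells the switched share of other cells was 8 of 25 (32.0%), and the difference was -0.571 points.

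Among switched cells, Ighg2b was the largest constant gene in 5 Ighv1-72 cells and 1 other cell, and Ighg2c in 3 and 4 cells. Ighg1 led in 2 and 1 cells and Ighg3 in 1 and 2 cells. Igha and Ighe led in 0 cells of either side, and Ighd led in 1 other cell. These counts are too small to tell the sides apart class by class. Ighv1-72 itself had a median of 863 in the 24 Ighm cells (range 55.3 to 6596) and of 168 in the 11 switched cells (range 10.1 to 1983), and these ranges overlapped widely. These medians pool the 2 sets, whose own medians of Ighv1-72 were 208 and 1688. Set 2 held 8 of the Ighm cells and 3 of the switched cells, and the comparison was not made within a set.

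**Figure D2:**
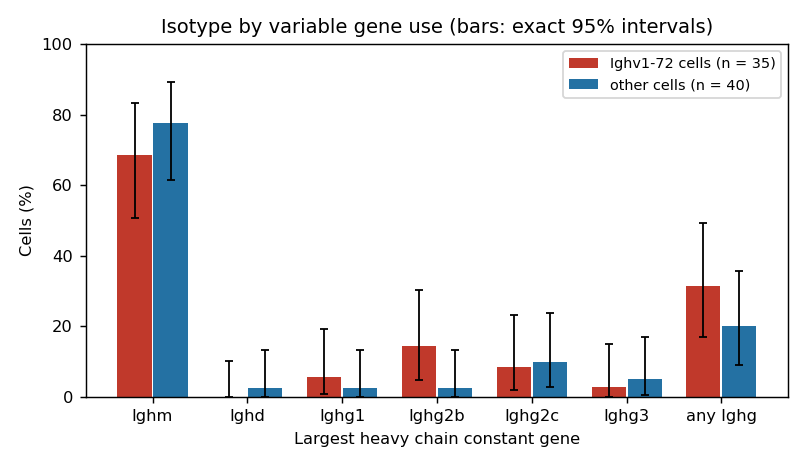
Share of cells (y axis, %) by largest heavy chain constant gene (x axis) in 35 Ighv1-72 cells and 40 other cells with enough constant gene signal, with exact 95% intervals as error bars. Any Ighg was 31.4% against 20.0%, and the intervals of the sides overlap in every class.

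Outside the immunoglobulin genes, 5585 genes reached a value of 1 in at least 10% of the kept cells and were compared. By the rule of size, 200 genes (3.58%) were higher and 162 genes (2.9%) were lower in Ighv1-72 cells. The median difference over all genes was 0.01, with quartiles of -0.31 and 0.36. Much of the spread was not shared between the sets. Of 261 genes with a difference of at least 1 in size in both sets, 186 had the same direction (102 higher, 84 lower) and 75 had opposite directions, and Pearson's r across genes between the 2 sets of differences was 0.16, given as a description because genes are not independent. A single gene past the rule is thus weak evidence, and several genes named below were only just past 0.5 in 1 of the sets.

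Without the 16 Sdc4 cells, 247 genes (4.42%) were higher and 151 (2.7%) were lower, and 119 of the 200 and 50 of the 162 were still called. The sets then shared less: 183 genes had the same direction, 128 had opposite directions, and r was 0.07. Cells with Ighm as the largest constant gene were also compared alone, 24 against 31, and 15 of these 31 were Sdc4 cells. The counts were then 294 (5.26%) and 260 (4.66%), with 138 and 123 of the original calls among them. The shares over all genes given here are the background for the list counts below: 3.58% higher and 2.9% lower in all kept cells, 4.42% and 2.7% without the Sdc4 cells, and 5.26% and 4.66% in IgM cells. Several genes described below as called did not pass the rule in IgM cells: H2-Oa (0.46), H2-DMa (0.40), Cd74 (0.98), Basp1 (1.67), Ube2c (1.25), Atp5e (0.84), Ndufv1 (0.66) and Cd79b (-1.01).

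**Figure D3:**
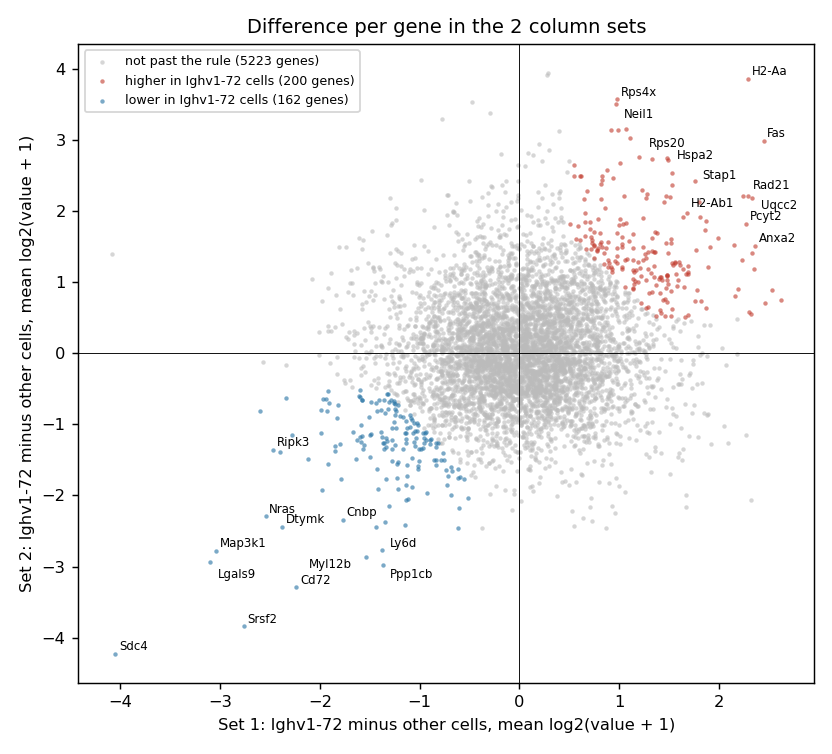
Difference per gene, Ighv1-72 cells minus other cells in mean log2(value + 1), in set 1 (x axis) and set 2 (y axis) for 5585 genes, with called genes coloured and the 12 highest and 12 lowest named. H2-Aa and Fas lie farthest out among the higher genes and Sdc4 among the lower ones, while the cloud as a whole shows little slope (r = 0.16).

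The clearest group on the higher side was MHC class II, the molecules by which a B cell shows antigen to helper T cells. Of 11 genes compared, 6 were called higher and 0 lower, against 3.58% and 2.9% of all genes, and the median difference of the group was 1.08 beside 0.01 over all genes, with 1.53 in set 1 and 0.62 in set 2. The group's size depended on the cells compared: 2 genes were higher and the median was 0.67 where Ighv1-72 had to exceed 80% of the sum, and 3 were higher with a median of 0.70 in IgM cells. H2-Aa, the alpha chain of I-A, had the largest difference of all called higher genes. Its values had a lowest of 2.15, a median of 186 and a highest of 6793 in Ighv1-72 cells, and 0, 14.3 and 4877 in other cells. It was detected in 36 of 36 and 30 of 42 cells (71.4%). The ranges overlapped, but the low end was filled by other cells. The difference was 2.96 (means 7.50 ± 3.44 and 4.25 ± 3.67, SD over cells), with 2.29 in set 1 and 3.86 in set 2, and it was 2.48 without the 16 Sdc4 cells, 1.03 in set 1 and 4.28 in set 2.

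H2-Ab1, the beta chain partner of H2-Aa, had medians of 1590 and 425 and was detected in 36 of 36 and 41 of 42 cells. Its difference was 2.23, close to equal in the sets at 2.24 and 2.22, and 1.38 without the Sdc4 cells. H2-Oa, the alpha chain of the H2-O protein that restrains peptide loading, had a difference of 1.57 (2.32 in set 1, 0.56 in set 2) and of 1.83 without them. These 3 genes remained called without the Sdc4 cells. H2-Eb1, a chain of I-E, had medians of 217 and 26.8 and a difference of 1.32, which was 0.11 without the Sdc4 cells. Cd74, the invariant chain, had medians of 2950 and 2136 and a difference of 1.14 that became 0.89. H2-DMa, a chain of the peptide loading protein H2-DM, went from 1.08 to 0.87. The group's median without these cells was 0.87. Ciita, the regulator that turns these genes on, had a difference of 0.63, but 1.73 in set 1 and -0.83 in set 2, so it was not called.

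Fas had the second largest difference among the higher genes, and its protein, a death receptor, was part of the sorting gate. Ighv1-72 cells had a lowest value of 0, a median of 13.0 and a highest of 3212, and other cells had 0, 0.145 and 2011. Fas was detected in 26 of 36 Ighv1-72 cells (72.2%, interval 54.8 to 85.8), in 11 of 42 other cells (26.2%, interval 13.9 to 42.0) and in 54 of the 104 cells left out (51.9%). The cells left out lay between the 2 sides. The difference was 2.68, with 2.45 in set 1 and 2.99 in set 2. Without the Sdc4 cells, in none of which Fas was detected, other cells had it in 11 of 26 (42.3%) and the difference was 1.78, still past the rule.

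Germinal centre B cell genes as a list gave a mixed picture. Of 19 genes compared, 3 were higher (Fas, Basp1 and Rgs13) and 3 were lower (Ebf1, Cd79a and Cd79b), beside 3.58% and 2.9% of all genes, with a median difference of 0.51. In IgM cells 5 were higher and 3 lower. Without the Sdc4 cells the difference of Basp1 went from 1.57 to 0.30, and that of Rgs13, a brake on chemokine receptor signalling, from 1.10 to 0.47. S1pr2, a receptor that confines B cells to follicle centres, had a difference of 0.92 and was detected in 18 and 13 cells, and Mef2b, a transcription factor upstream of Bcl6, had a difference of 0.85 and was detected in 28 and 25 cells. Bcl6, a repressor that germinal centre B cells depend on, had -0.67, and it was the gene of this list called lower once the Sdc4 cells were left out. Without them, 2 genes were called higher, Fas and Ms4a1, and the median was 0.16.

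**Figure D4:**
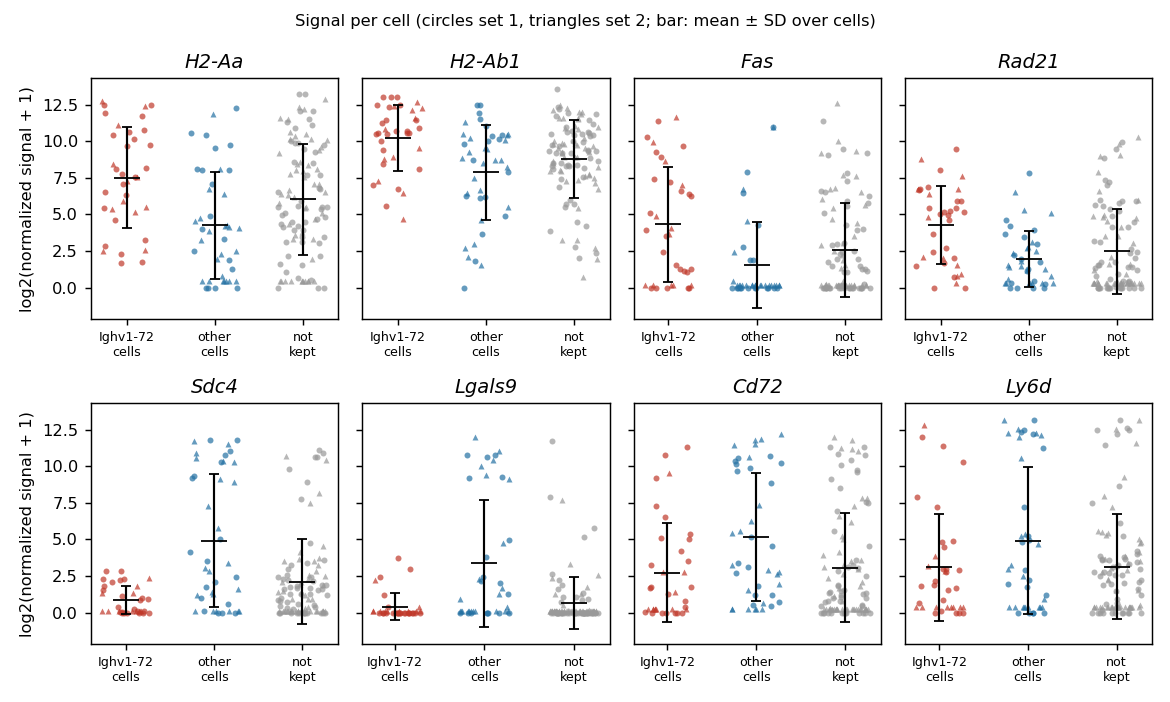
Signal per cell as log2(normalized signal + 1) (y axis) of 8 genes in 36 Ighv1-72 cells, 42 other cells and 104 cells left out (x axis), with circles for set 1, triangles for set 2 and bars for the mean ± SD over cells. H2-Aa and Fas are low or undetected in more of the other cells, while Sdc4 and Lgals9 have a high cluster among other cells that has no counterpart among Ighv1-72 cells.

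The zone lists are short, and their counts stand beside 3.58% higher and 2.9% lower over all genes. These shares were 4.42% and 2.7% without the Sdc4 cells, and 5.26% and 4.66% in IgM cells. Of the dark zone list, 11 of 13 genes passed the filter, 1 was higher (Rgs13) and 0 lower, with a median of 0.53 and 9 of 11 differences above 0. With the Sdc4 cells left out, 0 were called in either direction and the median was 0.27, and in IgM cells 3 were higher and 0 lower. Cxcr4, the chemokine receptor of the dark zone, had a difference of 0.40 and was detected in 19 of 36 and 21 of 42 cells. Foxo1, a transcription factor of dark zone cells, had 1.57 in set 1 and -0.88 in set 2. Of the light zone list, 16 of 23 genes passed, 2 were higher (Bcl2a1b and Il4i1), 1 was lower (Egr1), and the median was 0.23. Il4i1 went from 1.07 to 0.87 and Egr1 from -1.09 to -0.78 without the Sdc4 cells, which left Bcl2a1b as the 1 higher gene and 0 lower, with a median of 0.39. Bcl2a1b could only be called higher, as given below. In IgM cells 4 were higher and 1 lower. Cd83 and Cd86, surface proteins of light zone cells, had 0.05 and 0.81. Myc, which marks cells picked by T cells, had 0.83 and was detected in 7 and 6 cells.

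Bcl2a1b, a pro-survival member of the BCL2 family, was detected in 9 of 36 Ighv1-72 cells (25.0%, interval 12.1 to 42.2) and in 0 of 42 other cells, a count that allows up to 7.14% (3 cells of 42; exact 95% upper limit 8.41%). The gene passed the filter through Ighv1-72 cells alone, so only a call as higher was possible, and the call is a description. Its highest values were 1478 and 0.248. The difference was 1.51, with 1.38 in set 1 and 1.69 in set 2, and 1.52 without the Sdc4 cells. Near-identical copies exist: Bcl2a1d was detected in 5 and 0 cells and Bcl2a1a in 2 and 2 cells. Reads could have been split among these copies, and this was not tested. Of the 6 BCL2 family genes that passed, 1 was called, beside 3.58% higher and 2.9% lower over all genes, and the median difference was close to 0.

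Genes of cell division were compared in 2 lists, whose contrast with each other was not tested. Of 30 genes of G2/M phase, 5 were higher (Ube2c, Cenpa, Tacc3, Tpx2 and Cenpf) and 0 lower, beside 3.58% and 2.9% of all genes, with a median of 0.55. Ube2c, the ubiquitin conjugating enzyme of the anaphase promoting complex, had medians of 7.46 and 0.123, was detected in 23 and 17 cells, and had a difference of 1.84 (1.49 without the Sdc4 cells). Cenpa, the histone of centromeres, had 1.39 and Tacc3, a spindle protein, had 1.32, and they were 1.33 and 1.34 without those cells. The list then had 3 higher, 1 lower (Top2a) and a median of 0.22. Of 29 genes of S phase, 0 were higher and 1 was lower, Rrm2, the inducible subunit of ribonucleotide reductase, and the median was -0.26. Rrm2 went from -1.18 to -0.95 without the Sdc4 cells, where 1 gene was lower, Mcm5, and the median was -0.30. Among genes outside the lists, Rad21, a subunit of the cohesin ring, had medians of 30.8 and 1.73, was detected in 30 of 36 and 26 of 42 cells, and had a difference of 2.26 (2.03 without the Sdc4 cells).

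Antigen receptor genes are given beside the shares over all genes, 3.58% higher and 2.9% lower. Of 22 genes of B cell receptor signalling, 1 was higher, Syk, the kinase that binds the receptor's phosphorylated chains, and 2 were lower, Cd79a and Cd79b, which are those chains. Syk had medians of 15.8 and 3.91 and a difference of 1.39, and 1.19 without the Sdc4 cells. Cd79a had medians of 118 and 320 and a difference of -1.28, and Cd79b had 723 and 1843 and -1.08. Without the Sdc4 cells these 2 differences were 0.29 and 0.16, so the lower combined values rested on those cells. For Cd79b the sets then had opposite signs, -0.50 in set 1 and 0.98 in set 2. The list then had 3 genes higher (Syk, Lyn and Malt1) and 0 lower, beside 4.42% and 2.7% of all genes. Stap1, an adaptor of B cell receptor signalling that was not on the list, had a median of 5.99 in Ighv1-72 cells and 0.121 in other cells, was detected in 25 of 36 and 13 of 42 cells, and had a difference of 2.04 (1.60 without them).

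Cd72, an inhibitory co-receptor of B cells, was lower in Ighv1-72 cells both with and without the Sdc4 cells. Its lowest, median and highest values were 0, 1.53 and 2594 in Ighv1-72 cells and 0.188, 9.08 and 4702 in other cells, and it was detected in 19 of 36 and 32 of 42 cells. The ranges overlapped. The difference was -2.69 (-2.24 in set 1, -3.29 in set 2), and -1.68 without the Sdc4 cells. Ifngr1, a chain of the interferon gamma receptor, was detected in 11 of 36 and 26 of 42 cells and had -1.85 and, without them, -1.52. It was the gene called lower in both the list of receptors for T cell help (1 of 10) and that of switch cytokines (1 of 11). In these lists 0 genes were called higher, and the shares over all genes were 3.58% higher and 2.9% lower.

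The Sdc4 cells weighed on which genes were called lower. Without them 50 of the 162 lower genes were still called, while the count of lower genes changed little, at 151. Leaving out cells chosen by Sdc4 must also shrink the differences of genes that are high in the same cells. Sdc4 had a highest value of 6.32 in Ighv1-72 cells and of 3466 in other cells, was detected in 13 of 36 and 31 of 42 cells, and had the largest difference of all, -4.13 (-0.82 without the Sdc4 cells). Lgals9, which encodes the lectin galectin-9, was detected in 5 of 36 and 21 of 42 cells, with highest values of 12.5 and 4122, and went from -3.03 to -0.61. Map3k1, a kinase at the head of a stress pathway, was detected in 11 and 30 cells and went from -2.93 to -0.97. Ly6d, Vpreb3 and Ebf1 had differences of -1.97, -1.79 and -1.36, which turned to 0.41, 0.52 and 0.21. For Ly6d the sets then had opposite signs, 0.86 in set 1 and -0.15 in set 2. In the other cells taken alone, Spearman's rho with Sdc4 was 0.72 for Lgals9, 0.64 for Map3k1 and 0.60 for Ly6d over 42 cells of both sets, a description only. These genes were thus high together in the same cells.

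Of the 12 lowest genes, 4 remained past the rule without those cells: Cd72, Srsf2, Nras and Dtymk. Srsf2, a splicing factor, had medians of 6.39 and 265, was detected in 31 of 36 and 39 of 42 cells, and had a difference of -3.22 (without those cells, -1.45 in set 1 and -2.69 in set 2). Nras, a small GTPase of growth signalling, had medians of 1.72 and 87.2, was detected in 22 and 30 cells, and had -2.44 (-2.06 without). Dtymk, the kinase that makes thymidine diphosphate for DNA, was detected in 10 and 23 cells and had -2.40 (-3.38 without). Ripk3, a kinase of necroptosis, was detected in 5 and 19 cells, with -1.99 and -2.03, but without the Sdc4 cells it was -3.36 in set 1 and -0.38 in set 2. Myl12b, Ppp1cb and Cnbp had -2.10, -2.05 and -2.02 and were not past the rule without those cells, at -0.45, -1.21 and -0.49.

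Of the 12 highest genes, 10 remained past the rule, with Neil1 (2.05 to 0.71) and Rps20 (2.02 to 1.62, but 0.08 in set 1) the exceptions. Beside H2-Aa, Fas, H2-Ab1, Rad21 and Stap1 they were Uqcc2, an assembly factor of respiratory complex III, Pcyt2, an enzyme of phosphatidylethanolamine synthesis, Hspa2, an HSP70 chaperone, Anxa2, a membrane-binding annexin, and Rps4x, a ribosomal protein. Uqcc2 was detected in 19 of 36 and 10 of 42 cells, with a difference of 2.27 and 2.16 without the Sdc4 cells. Pcyt2 was detected in 19 and 6 cells, Hspa2 in 22 and 14, and Anxa2 in 20 and 12. Rps4x was detected in 36 of 36 and 27 of 42 cells, with a difference of 2.09 that was 0.98 in set 1 and 3.57 in set 2. All 24 genes, highest and lowest, also passed the rule among IgM cells alone. That comparison reused cells from which these genes had been chosen. It kept 15 Sdc4 cells among its 31 other cells, so it cannot separate the lower genes from those cells. The difference of Sdc4 itself was -5.01 in IgM cells, beside -4.13 in all kept cells.

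**Figure D5:**
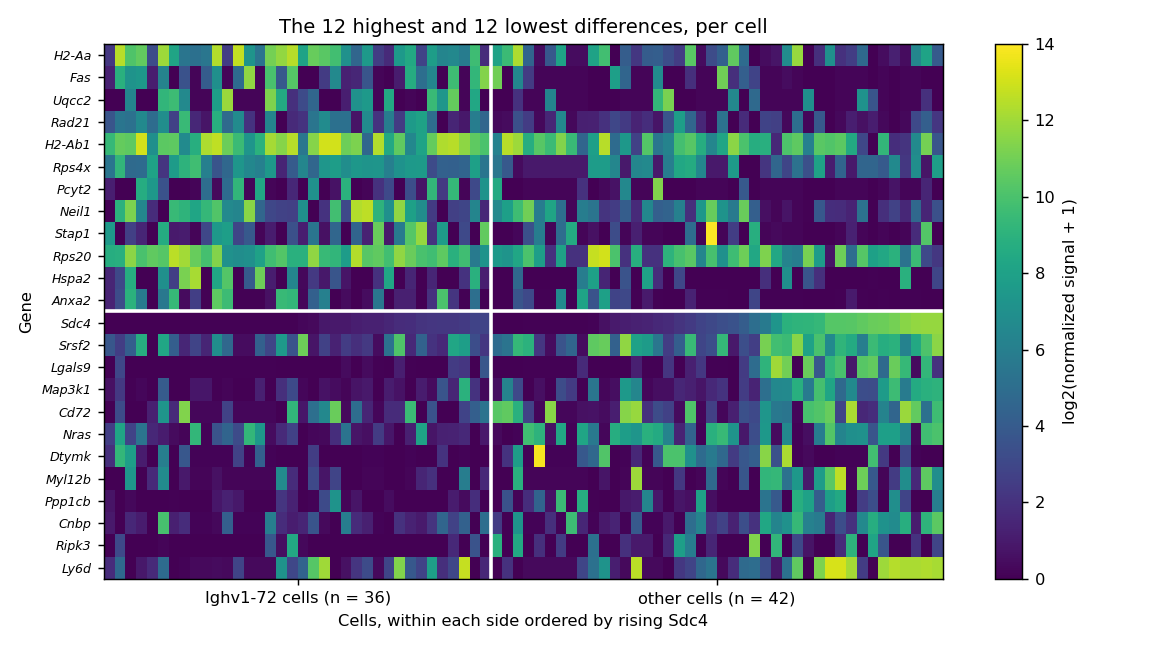
Signal of the 12 highest and 12 lowest genes (rows) in 36 Ighv1-72 cells and 42 other cells (columns, ordered within each side by rising Sdc4), coloured by log2(normalized signal + 1). The last 16 columns are the Sdc4 cells, in which Lgals9, Map3k1 and Ly6d are high in most cells and Fas is undetected, whereas Cd72, Nras and Dtymk are also high in other cells outside that block.

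Repair genes of hypermutation and switching gave 2 higher (Neil1 and Parp1) and 1 lower (Xrcc6) of the 13 that passed, of 18. The median was 0.20, and the shares over all genes were 3.58% and 2.9%. Neil1, a glycosylase of base excision repair, had medians of 90.0 and 17.0 and was detected in 32 and 35 cells. Xrcc6, a subunit of the Ku heterodimer of end joining, was detected in 6 and 17 cells. In IgM cells 4 of the 13 were higher and 1 lower, beside 5.26% and 4.66% of all genes. Without the Sdc4 cells 0 genes were higher and 2 lower, Msh6 and Hmces, beside 4.42% and 2.7%. The repair genes thus gave no direction that was shared with and without those cells.

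Ribosomal protein and energy genes were compared as lists too. Of 77 ribosomal protein genes, a list added after the values were seen, 68 passed, with 9 higher and 1 lower beside 3.58% and 2.9% of all genes and a median of 0.25, and 14 and 1 without the Sdc4 cells beside 4.42% and 2.7%. Of 12 genes of Myc-driven ribosome building that passed, of 17, 0 were called, 11 differences were above 0 and the median was 0.62, or 0.29 with 0 called without the Sdc4 cells. In IgM cells 3 of them were higher and 0 lower. Of 20 oxidative phosphorylation genes, 2 were higher, Atp5e and Ndufv1, at 1.93 and 1.36, and the median was 0.04. Without the Sdc4 cells 5 were higher and the median was 0.61, whereas in IgM cells 0 were higher, 4 were lower and the median was -0.30.

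Genes of the cells that leave the germinal centre often failed the filter. Their counts stand beside 3.58% higher and 2.9% lower over all genes, and beside 4.42% and 2.7% without the Sdc4 cells. Of 15 plasma cell genes, 7 passed and 0 were called, with a median of 0.15. Leaving out the Sdc4 cells gave 2 higher, Mzb1 and Slamf7, and a median of 0.68. Prdm1, the plasma cell repressor, was detected in 1 of 36 and 0 of 42 cells, and Xbp1, its partner in secretion, in 11 and 9. Of 15 genes of memory precursors, 6 passed, with 0 higher and 1 lower. Hhex, a transcription factor of memory B cells, was the 1 called lower: it was detected in 3 and 10 cells, and its difference was -1.16, and 0.0041 without the Sdc4 cells. Cd38 was detected in 3 and 9 cells and S1pr1, the receptor for leaving tissue, in 1 and 7, with differences of -0.64 and -0.77. Of 5 follicular B cell genes that passed, of 9, 0 were called.

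Markers of other cell types were checked on both sides. Of 7 T cell genes, at least 1 was detected in 0 of 36 Ighv1-72 cells and 11 of 42 other cells. Il7r, a receptor also made by precursor B cells, accounted for 9 of those cells, and its difference went from -1.06 to -0.21 without the Sdc4 cells. Il7r passed the filter through other cells alone, so only a call as lower was possible, and its difference is a description. Cd3d, Cd4 and Lat were detected in 0 cells of either side, and the summed signal of the 7 genes ranged from 0.00907 to 0.890 and from 0.00907 to 968. Of 9 myeloid genes, at least 1 was detected in 3 and 11 cells. Their sum ranged from 0.151 to 13.6 and from 0.151 to 1165, and Lyz2, a lysozyme, was detected in 1 and 5 cells. Of 8 genes of NK, erythroid and stromal cells, at least 1 was detected in 3 and 5 cells, with sums up to 15.2 and 425. Genes of the T cell and myeloid lists were thus detected in more of the other cells, but the T cell count rested mostly on Il7r. The counts of the NK, erythroid and stromal list were close. The part of these genes in the differences above was not tested.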

How the data were processed

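The deposited table gives a normalized signal per gene and cell, not on a log scale, for 17034 symbols and 182 cells. Per the submitters' processing notes the tools were TopHat2 2.0, Cufflinks 2.2 and Cuffdiff with the mm10 build, while their starting unit and how they were normalized are not stated in any source used here. The deposited signal is neither counts nor TPM, so no count model was used and depth is unknown. Columns fell into 2 sets with different lowest values per gene, which were seen in the values and handled as technical batches.

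Cells were sorted into sides by the rule given at the opening. The 51 immunoglobulin symbols were left out of the gene comparison. A gene was compared where it reached 1 in at least 10% of kept cells. Named genes were the 12 highest and 12 lowest called, all germinal centre, dark zone and light zone genes, the 3 largest of each other list, and all markers of other cells. One member of the lists is not reported here and was left out of them. Top2a, Mcm5, Msh6, Hmces, Lyn, Malt1, Ms4a1, Cd93 and Lef1 and the precursor B cell genes were named after their values were seen. The 19 lists, the members and the comparison were chosen with earlier results of these data known. Alternatives varied the thresholds, pseudocount, filter, set weighting, depth term and cells. Identities between variable segments were computed from GENCODE M21 transcripts. Python 3.11.15, numpy 2.4.6, pandas 2.3.3, scipy 1.17.1 and biopython 1.88 were used. Shifts planted in shuffled values were recovered, which checks the arithmetic of the differences and not the rule of size.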

Additional observations from a re-analysis of the deposited data

How the results depend on the processing

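The count of called genes moved with the added constant: 498 genes were higher and 359 lower with 0.1 in place of 1, and 42 and 31 with 10. Within set 1 alone 381 and 383 genes passed a difference of 1, and within set 2 alone 650 and 451, where the second condition of the rule has no part. Set 2 alone holds 12 Ighv1-72 cells. Among cells with Ighm largest, 260 genes were lower. With Ighv1-72 over 80% of the sum, 33 and 45 cells gave 201 and 145 genes, and with a sum of at least 50, 34 cells on each side gave 245 and 217. Leaving out the 16 cells with Sdc4 of 100 or more was an alternative chosen after seeing the data. It turned the sign of the difference of Ly6d (0.41), Ebf1 (0.21), Cd79a (0.29), Cd79b (0.16), Hhex (0.0041) and Vpreb3 (0.52). The sets then had opposite signs for Ly6d (0.86 in set 1, -0.15 in set 2), Cd79b (-0.50, 0.98) and Hhex (-0.08, 0.11). The cause was not tested. Of 52 named genes with alternatives, 24 stayed on their side of the rule there. No kept cell had under 1000 detected genes. The light chain alternative was not run. No paired analysis was possible because all cells form 1 group. Depth in reads is unknown, so an undetected gene cannot be told from a missed one.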
